A study of Homo sapiens with 2 samples.

Results

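The mitochondrial ribosomal protein genes were examined in Cal-27 cells that carried either of 2 short hairpin RNAs (shRNAs). They were taken as every row whose gene symbol starts with MRPL or MRPS followed by a number and holds no hyphen, a rule that uses names and no measured value. It found 78 of the 20263 genes listed, spread over 21 chromosomes. By their known places in the ribosome, 51 of them encode proteins of the large subunit and 26 proteins of the small subunit. The last, MRPS36, was named as a ribosomal protein but is a subunit of the oxoglutarate dehydrogenase complex. It was left out of the subunit and class summaries below but is part of every value for the 78 genes. MRPS30 and MRPS18A carry small-subunit names but sit in the large subunit and were counted there.

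Cal-27 is an established line of oral squamous cell carcinoma cells from the tongue. The control library came from cells stably transduced with a scramble shRNA vector (sh-scramble), and the other library from cells stably transduced with an shRNA against HIPK2 (GV-248-HIPK2-sh), a nuclear serine/threonine kinase. Both were grown in the same serum-containing medium, and total RNA was sequenced. Each group holds 1 library, so no difference has a replicate check, no p-value can be given, and every ratio compares these libraries and not the conditions. Stable lines can also differ from each other in the cells that took up the vector, which cannot be told apart from the hairpin.

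Mitochondria keep a small genome whose messenger RNAs encode core subunits of the respiratory chain, and they translate these on ribosomes of their own. The RNA parts of that ribosome come from the mitochondrial genome, while all of its proteins are encoded in the nucleus, made in the cytosol and imported. Many of the proteins have counterparts in the bacterial ribosome, and the others are found only in mitochondrial ribosomes.

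The control library held 28064923 gene counts and the library labelled HIPK2 shRNA 26450251. Levels of a gene are given below in CPM, its count relative to the scaled library total, where a single count stands for 0.0365 CPM (control) or 0.0370 CPM (HIPK2 shRNA). Comparisons between genes use the deposited TPM (transcript abundance relative to the library), which are per length. HIPK2 itself had 110 counts under the scramble label and 218 under the HIPK2 shRNA label, or 4.01 and 8.06 CPM, while its deposited TPM was 1.63 and 0.873. Counts and TPM thus point in opposite directions for the targeted gene, the counts go against the label, and which part of HIPK2 the hairpin targets was not given in the sources used here. Squamous markers were present in both libraries (7 of 7 expressed, summed level 6727 and 5379 CPM). Of the leukocyte markers, PTPRC, CD3E and CD79A were at 0 counts in both libraries, which allows up to 0.109 and 0.111 CPM, and CD68 made up the summed 23.1 and 20.6 CPM. Of the endothelial markers PECAM1 was at 0 and the sum was 56.1 and 28.5 CPM, nearly all of it CDH5. The fibroblast markers summed to 16.5 and 18.8 CPM with DCN at 0 in both libraries. The part of these markers in the results below was not tested.

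All 78 genes passed the minimum for an expressed gene (1 CPM in either library), and 67 of them (85.9%) had a lower CPM in the library labelled HIPK2 shRNA than in the control. Among all 11813 expressed genes 50% were lower and 50% higher. The median log2 ratio of the 78 genes was -0.29, with quartiles of -0.51 and -0.13, beside a median of 0.00 over all expressed genes. That background is not matched for level. Across all expressed genes the log2 ratio fell with the mean TPM (Spearman's rho -0.22), and the 78 genes were more abundant than most, as given below. The part of level in the difference was not tested. Log2 ratios are of the library labelled HIPK2 shRNA over the control, on the log2(CPM + 1) scale. Most of the differences were small. Past 2-fold were 2 genes lower (2.56%, against 2.87% of all expressed genes) and 1 higher (1.28%, against 3.26%), so the count of large decreases was near the background. Past 1.5-fold were 12 genes lower (15.4%, against 9.96%) and 1 higher (1.28%, against 10.6%).

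**Figure D1:**
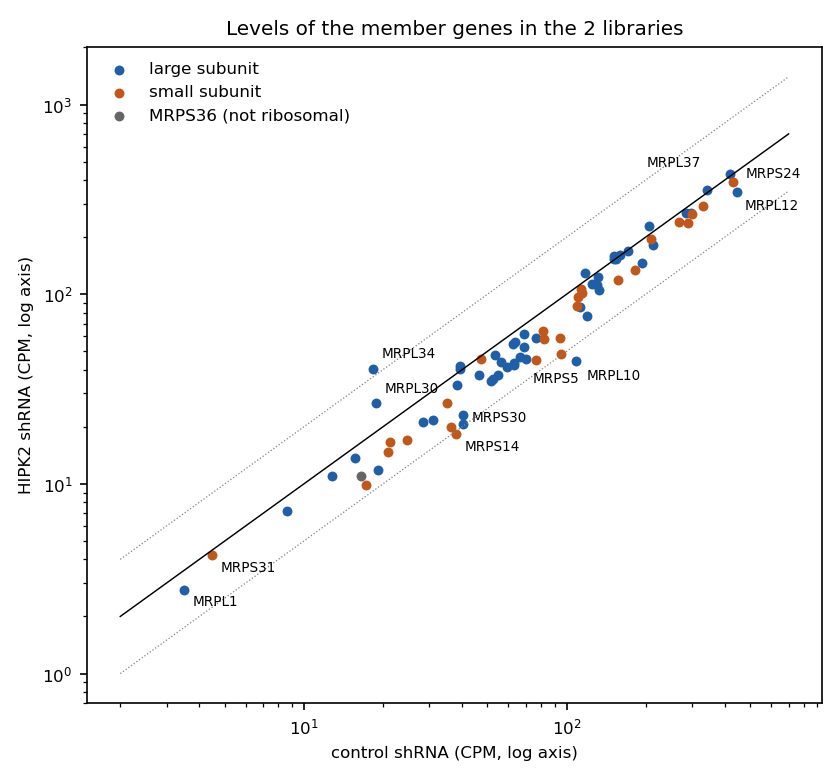
Level of each of the 78 genes in the control library (horizontal, CPM, log axis) and in the library labelled HIPK2 shRNA (vertical, CPM, log axis), 1 point per gene, coloured by ribosomal subunit. The solid line marks equal levels and the dotted lines a 2-fold difference: 67 points lie below the solid line, and MRPL10, MRPS14 and MRPL34 pass 2-fold.

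An interval for the ratio of each gene's CPM was taken from its counts in both libraries (95%, exact binomial). Such an interval holds the error of counting alone, and sequenced fragments that carry no molecular identifier are not separate molecules, so it says nothing of how much 2 cultures of the same cells would differ. The interval lay wholly below 1 for 59 genes (75.6%), against 34.6% of all expressed genes. It lay wholly above 1 for 7 genes (8.97%), against 32.7%, and held 1 for the other 12. Deeper counts narrow the interval, and these genes were more abundant than most: their median level was 68.2 TPM, against 8.65 TPM over all expressed genes. In bulk RNA, fewer cells that express a gene and less RNA per cell cannot be told apart.

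Summed over the 78 genes, the control library held 241487 counts, 0.860% of its total (exact binomial interval 0.857 to 0.864%). The library labelled HIPK2 shRNA held 205510 counts, 0.777% of its total (0.774 to 0.780%). The second share was 0.903 times the first. The large-subunit share was 0.927 times its control value and the small-subunit share 0.863 times. In deposited TPM the summed share was 1.08% and 1.01%, a ratio of 0.938.

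In the large subunit, 40 of 51 genes were lower and 11 higher, with a median log2 ratio of -0.23. MRPL10 had the lowest ratio of all 78 genes. It encodes the protein that anchors the stalk of the large subunit, where copies of MRPL12 are attached. Its gene lies at chr17:47823272-47831534 on the minus strand (GRCh38, as for all gene positions here). The control library gave 2978 counts and the other 1203, or 109 and 44.5 CPM, 2.44-fold lower (interval 2.28 to 2.61). TPM gave the same picture, at 95.6 and 39.0, a log2 ratio of -1.27 on either scale. No annotated exon of another gene overlaps it. MRPL12, its partner in the stalk and the large-subunit gene with the highest mean TPM of both libraries, went from 606 to 508 TPM, and from 444 to 347 CPM (1.28-fold lower, 1.25 to 1.31). The difference was larger for the anchor than for the protein it holds, with intervals that do not overlap.

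MRPS30, a large-subunit protein found only in mitochondrial ribosomes (chr5:44808925-44815522, plus strand), had 1107 and 562 counts, or 40.4 and 20.8 CPM. That was 1.94-fold lower (1.75 to 2.15), just short of 2-fold. MRPL32, a protein that needs trimming by a protease of the inner membrane before it joins the ribosome (chr7:42932200-42937857, plus strand), had 1108 and 626 counts and was 1.75-fold lower (1.58 to 1.93). Its exons overlap PSMA2 on the opposite strand, and the use of strand in counting was not given in the sources used here. MRPL18, a protein of the central protuberance, had 3282 and 2083 counts (1.55-fold lower, 1.47 to 1.64). MRPL22, which lines the exit tunnel for the new protein, had 1917 and 1239 counts (1.53-fold lower, 1.42 to 1.64).

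MRPL42 was the one gene whose log2 ratios from counts and from TPM differed by 0.5 or more. It had 527 and 322 counts, 1.61-fold lower (1.40 to 1.86), but 8.70 and 8.15 TPM, a log2 ratio of -0.08 where the CPM gave -0.65. The ratio of counts to the deposited FPKM (fragments relative to length and library total) gives the transcript length the authors' values imply in each library. For MRPL42 the length implied in the library labelled HIPK2 shRNA was 0.706 of that in the control. Such a shift of more than 10% occurred in 6 of the 78 genes (7.69%), against 24.7% of expressed genes. The length was shorter for MRPL42 and MRPS28 (0.787) and longer for MRPL35 (1.18), MRPS11 (1.299), MRPS25 (1.17) and MRPL34 (1.23). Which transcripts these lengths stand for is not shown by the files.

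**Figure D2:**
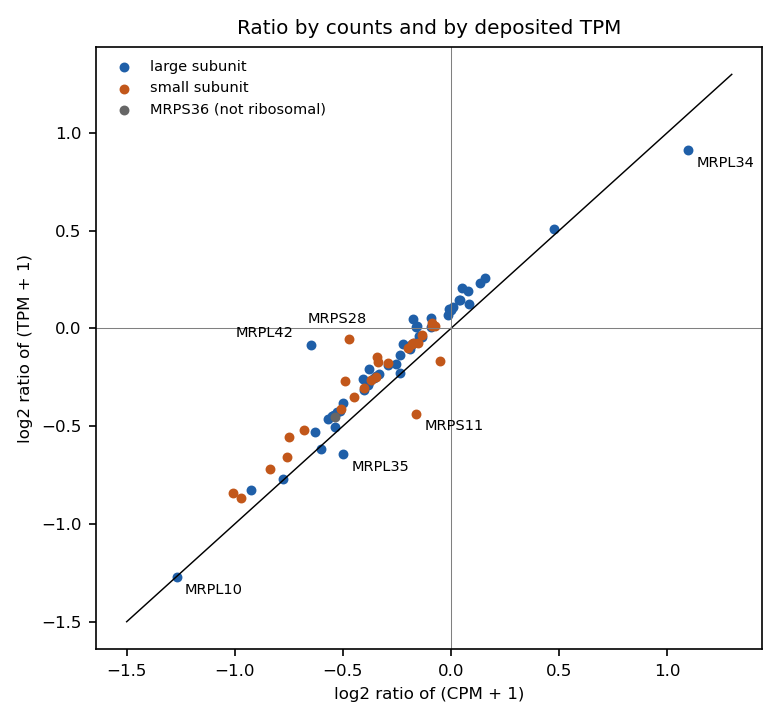
Log2 ratio of each of the 78 genes (library labelled HIPK2 shRNA over control) from counts as CPM (horizontal) and from deposited TPM (vertical), 1 point per gene. Most points run parallel to the line of equal values, slightly above it, while MRPL42 at -0.65 and -0.08 and MRPS28 at -0.47 and -0.06 lie well above it and MRPS11 at -0.16 and -0.44 below it.

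The large-subunit genes that were lower by less than 1.5-fold include several with known tasks at the ribosome. MRPL45, which holds the ribosome at the inner membrane beside the exit of the tunnel, had a log2 ratio of -0.57 (63.1 and 42.3 CPM). MRPL44, a protein with a ribonuclease-like fold, had -0.55 (51.7 and 35.0 CPM). MRPL58, a peptidyl-tRNA hydrolase that can free stalled ribosomes, had -0.51 (59.1 and 41.1 CPM). These 3 genes were chosen after their values were seen, so the likeness of their differences is not a result. MRPL11, at the site where translation factors bind, was nearly level at 286 and 268 CPM, with a log2 ratio of -0.09 that turned to 0.06 in TPM.

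Of the 11 large-subunit genes that were higher, MRPL34 stood well apart from the rest. It encodes a small protein with a bacterial counterpart (chr19:17292609-17306843, plus strand). Its 504 control counts stood against 1094 in the library labelled HIPK2 shRNA, or 18.4 and 40.4 CPM, a ratio of 2.20 (1.98 to 2.45). In TPM it had 33.5 and 64.0, a log2 ratio of 0.91 that stays short of the 2-fold limit. Its exons overlap those of ABHD8 on the opposite strand, which had 507 and 569 counts. MRPL34 was the only one of the 78 genes past 1.5-fold higher, opposite in direction to the greater part of its subunit.

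MRPL30 came next with 517 and 721 counts, or 18.8 and 26.6 CPM, a ratio of 1.41 (1.26 to 1.59). It shares exons on its own strand with 2 other annotated genes, AC079447.1 (15 and 79 counts) and AC092587.1 (0 and 20 counts), both also higher, so its own value is uncertain. MRPL38 (5655 and 6231 counts, ratio 1.12, 1.08 to 1.16) and MRPL24 (3223 and 3489 counts, ratio 1.097, 1.05 to 1.15) were higher by little. The other 7, among them MRPL28, MRPL37 and MRPL49, had log2 ratios between 0.00 and 0.08.

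In the small subunit 26 of 26 genes were lower, with log2 ratios from -1.01 to -0.05 and a median of -0.34. For 24 of them the counting interval lay wholly below 1. In TPM 23 of the 26 were lower, with a median of -0.21, beside 42.2% of all expressed genes lower and an all-gene median of 0.08. MRPS14 was lowest, a protein of the head of the small subunit (chr1:175012958-175023425, minus strand). Its 1040 control counts stood against 496 in the library labelled HIPK2 shRNA, or 37.9 and 18.3 CPM, 2.07-fold lower (1.86 to 2.31). In TPM it was 28.8 and 15.7, a log2 ratio of -0.84. Exons of CACYBP on the opposite strand overlap it, and that gene was lower too, with 2210 and 1305 counts.

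MRPS5, a core protein beside the path of the messenger RNA (chr2:95087207-95122000, minus strand), had 2623 and 1306 counts, or 95.6 and 48.3 CPM. It was 1.98-fold lower (1.85 to 2.12). ZNF514, which shares exons with it, had 27 and 39 counts. MRPS35 had 997 and 539 counts (1.82-fold lower, 1.64 to 2.03), and its exons overlap no other gene. MRPS10 had 2104 and 1215 counts (1.71-fold lower, 1.59 to 1.83), also with no overlap. MRPS17 had 2592 and 1587 counts (1.61-fold lower, 1.51 to 1.72). It shares exons on its own strand with NIPSNAP2 and AC092647.5. All 6 small-subunit genes past 1.5-fold had a counting interval wholly below 1.

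The smallest small-subunit differences were those of MRPS25, MRPS31, MRPS27 and MRPS18B, with log2 ratios of -0.05, -0.07, -0.09 and -0.09. MRPS25 had 1300 and 1237 counts (1.04-fold lower, 0.958 to 1.12) and MRPS31 only 123 and 114 (1.06-fold lower, 0.818 to 1.39). Both intervals hold 1, so no difference was detectable at this depth. MRPS27, which binds RNA through pentatricopeptide repeats, had 3106 and 2880 counts, and its log2 ratio turned to 0.03 in TPM, as that of MRPS18B turned to 0.01. MRPS12, a protein of the decoding centre, had 7347 and 6529 counts and a log2 ratio of -0.15.

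The 3 MRPS18 proteins are paralogs of 1 bacterial small-subunit protein, and they occupy different places in the ribosome. MRPS18C, which takes the place of the bacterial protein, had 472 and 266 counts (1.75-fold lower, 1.503 to 2.04). MRPS18B, elsewhere in the small subunit, had 5729 and 5311 counts (1.06-fold lower, 1.025 to 1.105). MRPS18A, in the large subunit, had 4247 and 4170 counts, a ratio of 0.995 (0.953 to 1.04). Of the 3 paralogs only the interval of MRPS18A holds 1, and the interval of MRPS18C lies apart from both others. Per length MRPS18C was also the least abundant, at 25.5 and 17.1 TPM, against 191 and 193 for MRPS18B and 210 and 225 for MRPS18A.

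**Figure D3:**
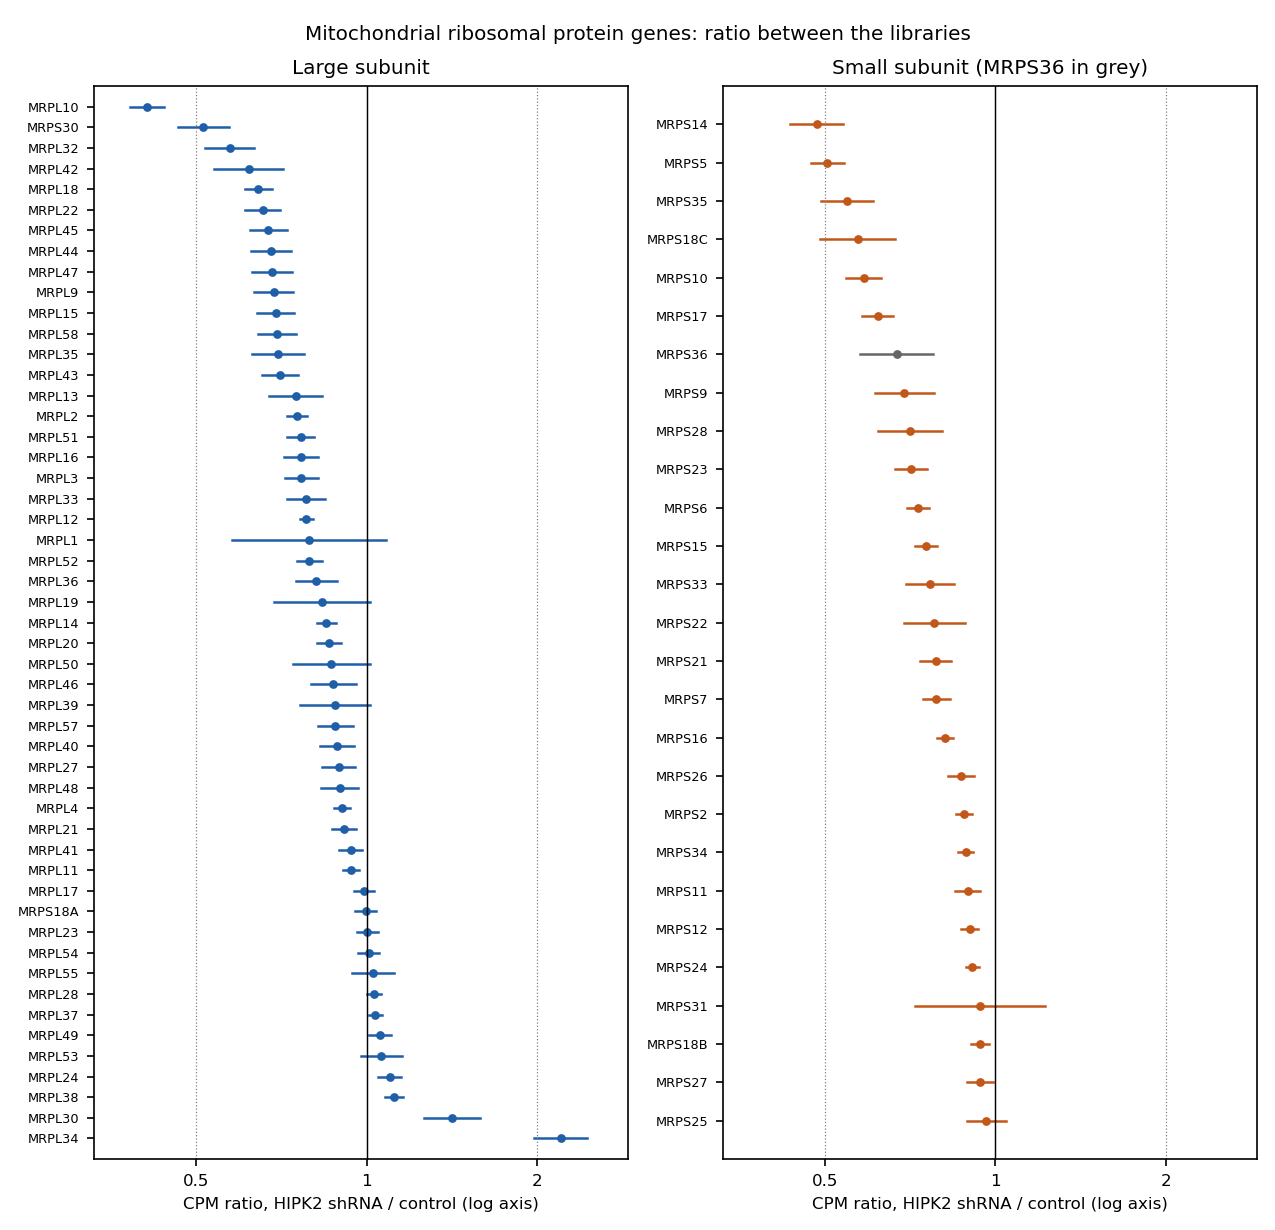
CPM ratio of each of the 78 genes (library labelled HIPK2 shRNA over control, log axis), ordered within each subunit, with bars for the 95% counting intervals, which cover counting error only. All 26 small-subunit points lie below 1, while the large-subunit points run from MRPL10, 2.44-fold lower, to MRPL34 at 2.20.

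Proteins with a bacterial counterpart and those found only in mitochondrial ribosomes were compared in each subunit. In the small subunit the 16 genes with a bacterial counterpart were lower in 16 of 16 cases with a median log2 ratio of -0.43, and they stayed lower in TPM, where the median was -0.33. The 10 mitochondria-specific small-subunit genes were lower in 10 of 10 cases in CPM, with a median of -0.19, and in 7 of 10 in TPM. After the subtraction of the length and GC trend described below, the medians of these 2 classes were -0.28 and -0.23, a smaller gap than in CPM. In the large subunit the medians were -0.27 for 30 genes with a bacterial counterpart (24 lower) and -0.18 for 21 without (16 lower). After the same subtraction these large-subunit medians were -0.25 and -0.10, a larger gap than in CPM. With 1 library per group these medians have no test. MRPS36, the gene outside the ribosome, had 451 and 298 counts, 1.49-fold lower (1.29 to 1.73).

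Shared exons touched 41 of the 78 genes, 16 on the same strand and 29 on the opposite strand. The 41 genes had a median log2 ratio of -0.29 with 33 lower, and the other 37 a median of -0.29 with 34 lower. Without the overlapping genes, 10 of 10 small-subunit and 23 of 26 large-subunit genes were lower.

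Although the proteins are assembled in equal numbers but for those of the stalk, their transcripts spanned a 270-fold range per length. By the mean of both libraries the most abundant was MRPS24, at 827 and 810 TPM, followed by MRPL12. Then came MRPL28, at 503 and 556 TPM and thus above MRPL12 in the library labelled HIPK2 shRNA, and MRPS34, at 450 and 428 TPM. The readthrough gene URGCP-MRPS24 shares exons with MRPS24, so its counts are uncertain. At the other end stood MRPL1 with 3.28 and 2.78 TPM (96 and 75 counts), MRPS31 with 4.28 and 4.32, MRPL19 with 4.83 and 3.99, and MRPL50 with 5.34 and 4.96. The counting intervals of the ratio of these 4 genes all hold 1. The quartiles of the level were 34.1 and 190 TPM, 18 were above 200 TPM, and the 10 highest made up 42.6% of the summed TPM. The order was nearly the same in both libraries (Spearman's rho across the 78 genes 0.98, a description across genes that share the same 2 libraries).

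The genes with a lower GC content differed more. Of 24 genes with under 45% GC in their transcripts, 23 were lower, with a median log2 ratio of -0.47, and of 13 genes with 45 to 50% GC, 13 were lower, also with a median of -0.47. Of 19 genes with 50 to 55% GC, 17 were lower with a median of -0.17, and of 22 genes with 55% GC or more, 14 were lower with a median of -0.14. All expressed genes in the same 4 classes had medians of 0.01, -0.13, -0.06 and 0.07. Across the 78 genes Spearman's rho of GC content with the log2 ratio was 0.54, while across all expressed genes it was 0.08. It was 0.50 for cytosolic ribosomal proteins and 0.54 for nuclear respiratory chain genes. Spearman's rho of the mean TPM with the log2 ratio was 0.39 across the 78 genes and -0.22 across all expressed genes. For cytosolic ribosomal proteins it was 0.17 and for nuclear respiratory chain genes 0.18. The points share the libraries, and GC content itself went with the level (rho 0.77 across the 78 genes), so GC content and level cannot be told apart here.

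**Figure D4:**
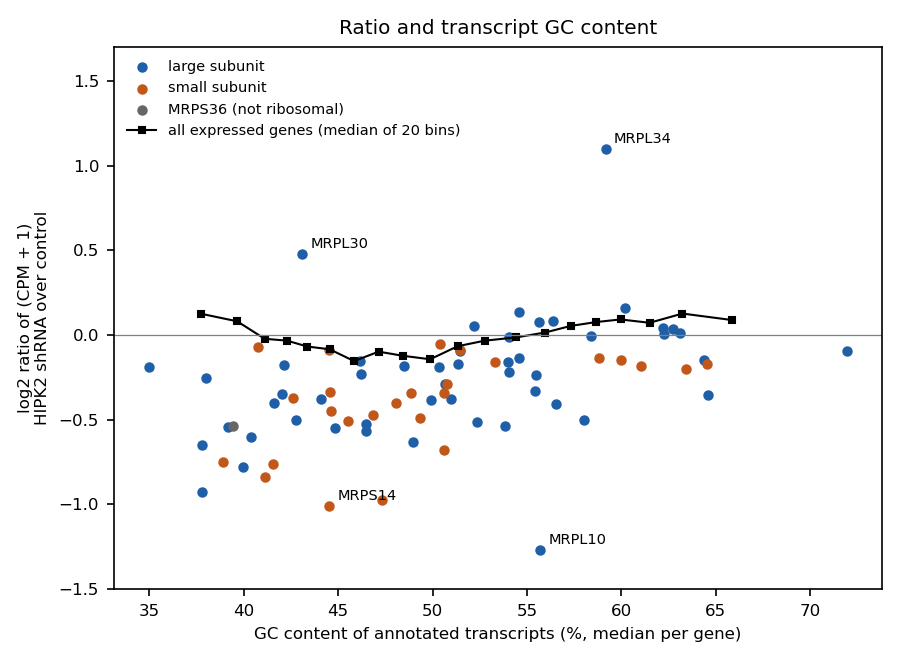
GC content of each gene's transcripts (horizontal, percent) against its log2 CPM ratio (vertical, library labelled HIPK2 shRNA over control), 1 coloured point per gene, with a black line through the medians of 20 bins of all expressed genes. Genes under 50% GC lie mostly well below the black line, and those above 55% GC closer to it.

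When the trend of the log2 ratio over transcript length and GC content among all expressed genes was subtracted, 65 of the 78 genes were lower, beside 50% of all expressed genes. Of the 67 genes lower in CPM, 61 were also lower after that step and 6 were not, and 4 genes that had been higher were lower. Their median was then -0.24, with -0.23 for the large and -0.24 for the small subunit. The medians of the 4 GC classes were -0.41, -0.32, -0.12 and -0.19 after that step. Level was not part of the subtraction, and across all expressed genes its rho with the corrected log2 ratio was -0.21. In deposited TPM, 57 of the 78 genes were lower with a median of -0.17, against 42.2% of all expressed genes.

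The DNA at the start of these genes was examined because the genes differed mostly in 1 direction between the libraries. Windows from 250 bases before to 50 bases after the start were taken from RefSeq (GRCh38.p14) and matched 69 of the 78 genes by symbol. The 9 without a window are MRPL2, MRPL10, MRPL13, MRPL15, MRPL21, MRPL23, MRPL35, MRPS28 and MRPS36. In each window 4 short motifs were searched on both strands: the core bound by ETS factors such as GABPA (CCGGAAG), the core bound by YY1 (AAGATGG), a core of the nuclear respiratory factor NRF1 (GCATGCG) and the TATA box (TATAAA). The letters of the 4 motifs are distinct, and a window may hold several. A match describes the letters and does not show that a factor binds there.

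The ETS core was present in 29 of 69 windows (42.0%), against 10.6% of all 27305 windows and 19.7% of the 9201 windows of expressed genes. The YY1 core was present in 23 windows (33.3%), against 6.03% and 7.66%. The NRF1 core was present in 7 (10.1%), against 4.14% and 6.54%, and the TATA box in 2 (2.899%), against 12.02% and 5.22%. Both the ETS and the YY1 core were present in 9 windows (13.04%), against 0.864% of all windows and 1.79% of those of expressed genes. The shares of the ETS and YY1 cores were thus above those of both backgrounds, with no test made. The share of the TATA box was below them but rests on only 2 windows. The windows differ in base composition too: their median GC content was 60.3% for the ribosomal protein genes, 58.3% for all windows and 65.7% for those of expressed genes.

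The cores also had a typical place. The 39 ETS matches had a median position 22 bases before the start, and 33 lay within 100 bases of it. Of the 24 YY1 matches 20 were on the strand of the gene, 16 lay after the start, and the median position was 10 bases after it. In 12 of the 24 the ATG inside the core is an annotated start codon of the gene (GENCODE 29). The arrangement is shown for 3 genes that hold an ETS core on the gene's strand shortly before the start and a YY1 core on the same strand shortly after it. They were chosen after the matches were seen, and their log2 ratios differ widely. All sites are on the minus strand of GRCh38.p14 and are printed in the direction of the gene. The capitals mark the ETS core (CCGGAAG), at chr6:42217867-42217893 for MRPS10, chr1:1407298-1407324 for MRPL20 and chr6:43687806-43687832 for MRPS18A:
MRPS10: cgctgtaaccCCGGAAGcaatcctgag
MRPL20: aggggctgacCCGGAAGcgctcgtgac
MRPS18A: gcgctacgttCCGGAAGcggaaatgga

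The cores of these ETS sites begin 22, 21 and 31 bases before the start. The capitals in the next lines mark the YY1 core (AAGATGG), at chr6:42217836-42217862 for MRPS10, chr1:1407262-1407288 for MRPL20 and chr6:43687766-43687792 for MRPS18A:
MRPS10: cgggaccggcAAGATGGcggcgcggac
MRPL20: cgacccgggcAAGATGGcagcggcgct
MRPS18A: taggtttttgAAGATGGcggccctcaa

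These YY1 cores begin at bases 10, 16 and 10 after the start, and in MRPS10 and MRPS18A the ATG within the core is an annotated start codon. MRPL20 holds a further ETS core on its own strand, which begins 44 bases before the start. With such a pair of cores in like places, MRPS10 had a log2 ratio of -0.76, MRPL20 of -0.22 and MRPS18A of -0.01. Over all windows the motifs parted the genes little: the median log2 ratio was -0.29 with and -0.23 without an ETS core, and -0.29 with and -0.23 without a YY1 core. The 7 genes with an NRF1 core had a median of -0.40, against -0.23 for the 62 without. The genes of the 3 factors were themselves expressed: GABPA had 115 and 159 counts, YY1 876 and 700, and NRF1 608 and 580.

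A start shared with a neighbour was common. Within 1000 bases, 29 of the 78 genes (37.2%) had a protein-coding gene starting in the opposite direction, against 17.8% of 11797 expressed genes. For 25 of them the partner was expressed. The partners were lower in 13 cases and higher in 12, with a median log2 ratio of -0.02, against -0.19 for the 25 ribosomal protein genes. In 12 of the 25 cases both genes were lower. In these counts 2 partners, MRPL46 and MRPS11, are themselves among the 78 genes, so their pair enters once from each side. MRPL18 starts 63 bases from TCP1, a subunit of the cytosolic chaperonin, which went from 279 to 179 CPM (log2 ratio -0.64, against -0.63 for MRPL18). MRPL32 starts beside PSMA2, a proteasome subunit, which went from 162 to 113 CPM (-0.52, against -0.78). MRPL47 starts 36 bases from NDUFB5, a subunit of respiratory complex I, which went from 64.4 to 32.7 CPM (-0.96, against -0.54). The counting intervals of the 2 genes do not overlap in the pairs of MRPL32 and MRPL47. MRPL46 and MRPS11 start 34 bases apart and had -0.19 and -0.16.

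Other pairs differed in direction. MRPL10 starts 93 bases from LRRC46, which had only 9 and 31 counts. MRPL11 and PELI3 had log2 ratios of -0.09 and 1.64, the latter with 585 and 1852 counts. MRPL51 and NCAPD2, a condensin subunit, had -0.38 and 0.41.

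The other genes of the pathway were described from lists by function. The 5 further proteins of the mitochondrial ribosome that have other names were all lower, with a median log2 ratio of -0.22. DAP3, a GTP-binding protein of the small subunit, had 117 and 79.4 CPM (-0.56). CHCHD1, also of the small subunit, had 50.9 and 37.8 CPM (-0.42), and AURKAIP1 had 344 and 295 CPM (-0.22). GADD45GIP1 and PTCD3 had -0.21 and -0.20. All 5 values lie within the ranges of both the small-subunit and the large-subunit genes above.

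Of 26 assembly factors, which build the ribosome and modify its RNA, 18 were lower, with a median log2 ratio of -0.10 and none past 1.5-fold. In TPM 13 were lower and 13 higher, with a median of -0.01. NGRN had 121 and 83.2 CPM (-0.53) and RPUSD4, a pseudouridine synthase, 686 and 500 counts (-0.42). MTG2, a GTPase of large-subunit assembly, was higher with 39.5 and 54.9 CPM (0.46). Of 17 translation factors 8 were lower and 9 higher, with a median of 0.01. GFM2, which helps to recycle ribosomes, had 23.5 and 14.7 CPM (-0.64). The initiation factor MTIF2 had 7.87 and 11.1 CPM (0.45) and LRPPRC, which stabilises mitochondrial messenger RNAs, 34.3 and 47.3 CPM (0.45). The elongation factor TUFM, by far the most abundant of them, was level at 1106 and 1101 CPM. In TPM 4 of the 17 translation factors were lower and 13 higher, with a median of 0.10, so the split depended on the unit. The TPM background was shifted too, with 42.2% of all expressed genes lower and a median of 0.08. The TPM values of the other lists stand beside that same background.

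Of 20 genes for charging mitochondrial tRNAs, 14 were lower in CPM, with a median log2 ratio of -0.11, and 10 in TPM, with a median of 0.00. Past 1.5-fold lower were 3 of them (15%, against 9.96% of all expressed genes): QRSL1, part of the enzyme that makes glutaminyl-tRNA (14.4 and 7.69 CPM, -0.83), the histidyl-tRNA synthetase HARS2 (27.4 and 15.9 CPM, -0.75) and the methionyl-tRNA synthetase MARS2 (24.2 and 14.4 CPM, -0.72). Of 9 genes for the transcription and packaging of mitochondrial DNA 4 were lower, with a median of 0.05. Among them SSBP1, which coats single-stranded mitochondrial DNA, had 106 and 64.7 CPM (-0.70), TEFM had 7.14 and 4.99 CPM (-0.44), and TFB2M had 9.77 and 7.21 CPM (-0.39). Of the regulators of mitochondrial biogenesis 8 of 9 were expressed and 5 of these were lower. The coactivator PPARGC1B had 14.8 and 8.43 CPM (-0.75) and the nuclear receptor ESRRA 289 and 194 CPM (-0.58), while GABPA was higher (0.41). PPARGC1A, under 1 CPM in both libraries, had 0 and 13 counts.

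The messages that these ribosomes translate differed in both directions. Of the 13 messenger RNAs of the mitochondrial genome 9 were lower in CPM, with a median log2 ratio of -0.08. In TPM 6 were lower and 7 higher, with a median of 0.02. MT-ND6 had 843 and 474 CPM (-0.83), MT-ND1 4813 and 3192 CPM (-0.59), and MT-CO2 20343 and 14740 CPM (-0.46). On the other side MT-CO3 had 455591 and 578651 counts (0.36), and MT-ND2 and MT-ND4L had 0.22 each. MT-ND6 is the one encoded on the other strand of the mitochondrial genome, so its count also depends on how strand was treated. The sum over all 13 was 10.2% of the counts in the control library and 9.77% in the other.

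Among 79 expressed nuclear respiratory chain genes 66 were lower, with a median log2 ratio of -0.23. Past 2-fold lower were 2 of them (2.53%), near the 2.87% of all expressed genes. SDHD (ENSG00000204370), a membrane anchor of complex II, had 28.6 and 11.7 CPM (-1.22). COX7C, a subunit of cytochrome c oxidase, had 269 and 126 CPM (-1.09), and NDUFB5 came next. Of 82 expressed cytosolic ribosomal protein genes, in contrast, 50 were lower and 32 higher, with a median of -0.09 that became 0.02 in TPM. Among these RPS27L had 24.3 and 14.8 CPM (-0.68), RPL5 800.3 and 552 CPM (-0.54), and RPL23A 867 and 1285 CPM (0.57). Cytosolic ribosomal protein genes have many processed copies in the genome, so their counts are uncertain. Their summed share of the counts was 9.91% and 9.99%, a ratio of 1.01, beside ratios of 0.918 for the respiratory chain genes and 0.903 for the mitochondrial ribosomal protein genes. With 1 library per group, these differences between lists were not tested.

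**Figure D5:**
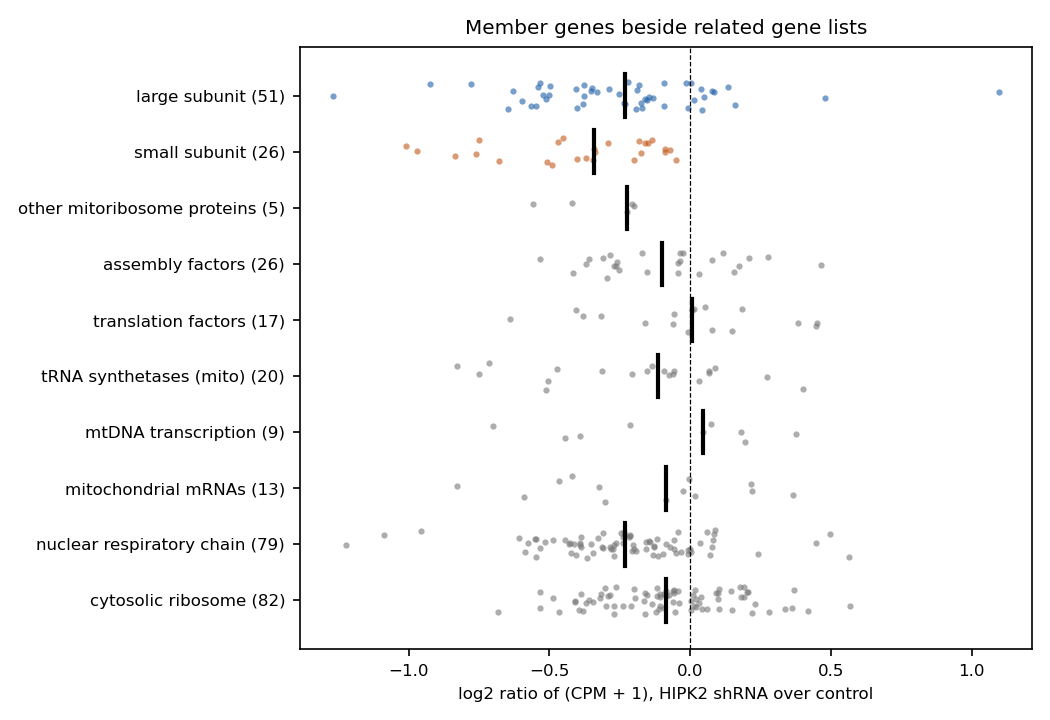
Log2 CPM ratio (library labelled HIPK2 shRNA over control) of every expressed gene of the mitochondrial ribosomal protein genes and of the other lists except the regulators, 1 point per gene, with a black bar at the median of each list and a dashed line at the median of all expressed genes. The medians lie at -0.34 for the small subunit, -0.23 for the large subunit and for the respiratory chain genes, and near 0 for the translation factors.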

How the data were processed

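Per the labels' protocols, TRIzol was used for extraction, a Gnomegen kit for the libraries and an Illumina HiSeq for 150 bp paired-end reads. FastQC, TopHat2 2.1.1 and the genome GRCh38 (hg38) are named in the submitters' processing notes. The counting tool, its annotation and its use of strand were not given in the sources used here. The deposited tables hold whole-number counts per gene, TPM and FPKM, computed by the authors. The FPKM were used only for the implied transcript lengths and the correction built on them. Counts were scaled with TMM factors of edgeR 4.0.16 (0.977 for the control, 1.02 for the other library), and log2 ratios used a pseudocount of 1 CPM. TPM log2 ratios used TPM + 1. A gene counted as expressed from 1 CPM upward in either library. The script for ratios and intervals was tested on simulated data. Gene positions, transcript lengths, GC content and overlaps come from GENCODE 29. With 1 library per group no test across genes was made.

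Values of both libraries were printed for genes past 1.5-fold, the 4 highest and 4 lowest log2 ratios per subunit, the 4 highest and lowest levels, genes whose TPM and CPM log2 ratios differ by 0.5 or more, the MRPS18 paralogs, the 3 most different genes of each other list and any past 2-fold. Genes named beyond this rule (such as MRPL45, MRPL44, MRPL58, MRPL11, MRPS12 and the neighbours) were chosen after their values were seen. The members and lists were chosen with earlier results of these data known.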

Additional observations from a re-analysis of the deposited data

How the results depend on the processing

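No paired analysis was possible because neither group has more than 1 library, and no replicate could be left out. Over 12 alternatives (other scalings, deposited TPM, pseudocounts, filters, length and GC corrections, no genes sharing exons) the median log2 ratio of the 78 genes ran from -0.33 to -0.17. The small-subunit median ran from -0.36 to -0.21 and the large-subunit median from -0.24 to -0.11. The lower counts without genes sharing exons follow from fewer genes. There 34 of 37 genes were lower, 10 of 10 in the small and 23 of 26 in the large subunit. In the same setting medians moved to 0.185 for the translation factors (5 genes), -0.36 for the mitochondrial messenger RNAs (8) and -0.22 for the tRNA charging genes (8). They moved to 0.24 for the regulators (3), 0.075 for the mitochondrial DNA genes (5) and -0.0023 for the assembly factors (8). The cause of these moves was not tested.

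For the other changes too, the cause was not tested. Over all expressed genes the median log2 ratio was 0.00 in CPM and 0.08 in TPM, so TPM ratios lay higher in the background too. In TPM the medians were -0.17 (all 78 genes), -0.11 (large subunit), -0.084 (mitochondria-specific), -0.13 (other proteins of the ribosome), 0.019 (cytosolic ribosomal proteins) and -0.12 (respiratory chain), HIPK2 had -0.49, and the summed share ratio was 0.938. Of the 67 lower genes 10 turned higher in TPM: MRPL39 (0.046), MRPL17 (0.067), MRPS18A (0.098) and MRPS31 (0.010), whose counting intervals hold 1, and MRPS18B (0.011), MRPL48 (0.014), MRPL27 (0.0094), MRPL11 (0.056), MRPL41 (0.0060) and MRPS27 (0.029). Correcting for the implied length gave -0.14 (large subunit), -0.21 (bacterial counterpart), -0.068 (mitochondria-specific), 0.046 (cytosolic ribosomal proteins) and -0.13 (respiratory chain). The other proteins of the ribosome had -0.15 with upper-quartile scaling, -0.16 with total counts and -0.17 with totals without mitochondrial genes. Past 2-fold higher were 0 genes in TPM, at pseudocount 5 and when genes sharing exons were left out. Past 2-fold lower was 1 gene, not 2, under upper-quartile, total-count and non-mitochondrial scaling, in TPM, at pseudocount 5, under both corrections and when genes sharing exons were left out. Under the 1.5-fold rule 12 were lower. Depth limited genes such as MRPL1 and MRPS31, whose counting intervals hold 1.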
